A study of Mus musculus with 96 samples.

Results

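The 10 genes described here encode the main heat-inducible and constitutive chaperones of the cytosol and the chaperonin pair of mitochondria: Hsph1, Hsp90aa1, Hsp90ab1, Hspa8, Hspa1a, Hspa1b, Dnajb1, Dnaja1, Hspd1 and Hspe1. They were listed by name as a functional family, with no threshold on their values, from the 55421 genes of a mouse liver RNA-seq count table, and all 10 passed the filter on low counts. The list was made with earlier results of these data known, so counts of members set beside shares of all genes are a description. Livers came from mice of 12 to 16 weeks in 2 lines, each with wild-type (WT) and knockout (KO) animals. The Bmal1 line lacks, in its KO, the clock activator BMAL1 (gene symbol Arntl), and the Cry line lacks both clock repressors, CRY1 and CRY2. Mice of each line and genotype fed ad libitum (AL) or under feeding restricted to the night (RF), which gave 8 groups: Bmal1 WT AL, Bmal1 KO AL, Bmal1 WT RF, Bmal1 KO RF, Cry WT AL, Cry KO AL, Cry WT RF and Cry KO RF. Each group held 12 libraries, 2 at each of 6 zeitgeber times (ZT) 4 h apart from ZT0 to ZT20, in 2 numbered series of 6. The labels name neither the cells that carry a deletion nor a shared animal or litter, so the p-values below measure the spread between these libraries.

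Chaperones hold or refold proteins that have lost their shape, with HSP70 proteins acting first, J-domain proteins delivering clients to them, HSP110 exchanging their nucleotide, and HSP90 finishing receptors and kinases. Heat shock factor 1 (HSF1) binds heat shock elements, which are inverted repeats of the unit GAA, and turns most of these genes on when unfolded protein or heat builds up. In mouse liver the family is known for transcripts that are most abundant at night, the phase of activity, feeding and high body temperature, and it is a textbook case of genes that can follow body-wide cues as well as the clock of the liver cell. The design asks which part of this daily pattern is present when BMAL1 or both CRY proteins are missing, and with meals confined to the night.

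Heat shock elements lie close to the start sites of several of these genes, and 4 stretches that hold one are shown. RefSeq promoter windows on GRCm38.p6, each 250 bases before to 50 bases after a start site, were matched for 7 members in 12 windows; Hsp90aa1, Hsp90ab1 and Hspa8 were not among them. Both strands were searched for 2 units head to head (GAANNTTC), 2 units tail to tail (TTCNNGAA), 3 units (both pairs joined so that they share their middle unit, and so counted under all 3 names), an E-box (CACGTG) and a CCAAT box (CCAAT). Capitals mark the heat shock element in the 4 stretches below, which run 5′ to 3′ on the strand of the gene. Hsph1 comes from chr5:149636337-149636486 and chr5:149636287-149636315 (minus strand), Hspa1b from chr17:34959239-34959388 (minus strand) and Hspe1 from chr1:55087998-55088147 (plus strand). The long stretches cover the 150 bases before the start site, and the short one covers positions 21 to 49 after it.
Hsph1 before the start site: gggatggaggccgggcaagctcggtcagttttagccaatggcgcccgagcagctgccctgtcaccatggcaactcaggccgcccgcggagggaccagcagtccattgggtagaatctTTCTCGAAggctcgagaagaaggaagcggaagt
Hsph1 after the start site: gtaaaatgctgcagaTTCTGGAAAGTTCt
Hspa1b: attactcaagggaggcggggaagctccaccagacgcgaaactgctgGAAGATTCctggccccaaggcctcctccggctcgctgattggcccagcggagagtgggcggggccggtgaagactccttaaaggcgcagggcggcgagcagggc
Hspe1: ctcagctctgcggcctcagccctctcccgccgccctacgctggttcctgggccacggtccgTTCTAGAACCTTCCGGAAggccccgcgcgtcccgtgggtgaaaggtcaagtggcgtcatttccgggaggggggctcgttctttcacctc

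The 3-unit element was found in windows of Hsph1, Hspd1 and Hspe1, and 0.603% of all 32851 RefSeq windows hold one. Hspd1 and Hspe1 are neighbours read in opposite directions, and a window of Hspd1 shares 285 of its 300 bases with that of Hspe1, so both count the same element. The 2-unit form GAANNTTC, in 7.86% of all windows, was also in the windows of Hspa1a and Hspa1b, starting 104 bases before the start, and in 1 window of Dnaja1. The Hspa1a and Hspa1b windows differ at 4 of 300 positions. TTCNNGAA, in 8.52% of all windows, was in windows of Hsph1, Hspd1 and Hspe1. No heat shock element in these letters was found in either window of Dnajb1. An E-box, the site of BMAL1 with its partner CLOCK, was in windows of Hsph1 and Hspd1, and 7.15% of all windows hold those letters; a CCAAT box, in 37.4% of all windows, was in windows of Hsph1, Hspa1a, Hspa1b, Dnajb1, Dnaja1 and Hspd1. Some members have more than 1 window, and the shares by gene are higher than those by window. Of 27025 genes, 0.662% hold the 3-unit element, 9.04% GAANNTTC and 9.60% TTCNNGAA in any window. An E-box is held by 8.09% of genes and a CCAAT box by 41.1%. A match describes the letters of these windows and was not tested against the expression data.

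The 96 libraries held 1478963 to 35568856 counts, with a median of 25422366. Of these libraries, 3 were shallow (under 4541141 counts, the depth of the next), 1 each in Bmal1 KO RF at ZT20, Cry KO AL at ZT20 and Cry KO RF at ZT4. 6 others stood apart in acute-phase, interferon or pancreatic transcripts: 2 of Bmal1 KO RF (ZT0 and ZT20), 2 of Cry WT AL (ZT12 and ZT8), 1 of Cry WT RF (ZT12) and 1 of Cry KO RF (ZT4). In CPM (counts scaled to a common library total) summed over 6 hepatocyte markers, every library was between 29110 and 125500, with medians of 39210 and 44660 in the Bmal1 KO groups against 96420 and 80850 in the Bmal1 WT groups, whose part in the results was not tested. In bulk liver, fewer cells of a type and less RNA per cell cannot be told apart. The deleted genes still gave counts, with Arntl at 9.79 to 15.03 CPM in Bmal1 KO AL, Cry1 at 5.24 to 9.97 CPM and Cry2 at 17.3 to 26.6 CPM in Cry KO AL, and counts over a whole gene do not check a deletion of part of it.

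All 10 genes were read in liver, at very different levels. Per kilobase of all annotated exons joined, the mean over all libraries was 324 CPM for Hsp90ab1, the constitutive HSP90, and 215 for Hspa8, the constitutive HSP70. It was 195 for Hspd1 (HSP60) and 80.6 for its cofactor Hspe1 (HSP10). The inducible HSP90 Hsp90aa1 was at 57.5, the J-domain protein Dnaja1 at 23.2, Hsph1 (HSP110) at 11.5 and the J-domain protein Dnajb1 at 6.79 CPM per kilobase. The inducible HSP70 pair was lowest, with Hspa1b at 5.48 and Hspa1a at 0.186, and Hspa1a was at 0 counts in 8 libraries. The joined exons exceed a single transcript by uneven amounts. They are 2999 bases against 2520 for Hsp90ab1 and 4301 against 2394 for Hspa8. For Hsph1 they are 7266 against 3802 bases, and for Hspe1 1474 against 774. The gaps between genes, that of Hsp90ab1 and Hspa8 among them, therefore depend on the length used. Hspa1a and Hspa1b are near copies, with 47.1% of the 100-base stretches of Hspa1a also in Hspa1b, and Hspa1b took 96.63% of their joint counts, so how reads were split between them is uncertain. Of the 100-base stretches of Hspa8, 63.4% occur in another gene, mostly in its processed pseudogenes. The share found in another gene was 47.5% for Hsp90aa1, 26.9% for Hspd1, 24% for Dnaja1 and 22.4% for Hspe1. For Hspe1 it lay mostly in a protein-coding gene (AC117239.2, 20.4%), and for Dnaja1 partly in Smu1 (9.2%). Hsph1, Hsp90ab1 and Dnajb1 share none. CPM values above and below are TMM-scaled for each library, except where named as unscaled. Those below compare times and groups within a gene.

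In WT liver, Hsph1 swung most widely of the abundant members, from its low in the late light phase to its high in mid-night. HSP110, its product, is the nucleotide exchange factor that resets HSP70. The gene lies at chr5:149614287-149636376 on the minus strand of mm10. Over the 8 WT libraries at each time, the lowest, median and highest values were 17.9, 20.5 and 29.5 CPM at ZT8, 115, 239 and 312 CPM at ZT16, and 67.4, 78.8 and 112 CPM at ZT20. No library at ZT8 reached the lowest at ZT20, and none at ZT20 the lowest at ZT16. In all 8 WT series, Hsph1 was lowest at ZT8 and highest at ZT16. The mean at the highest time was 8.12 to 12.4 times that at the lowest in the 4 WT groups.

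Hsp90aa1, at chr12:110690605-110702728, followed the same night rise with a slower return. Its 8 WT libraries ran from 65.8 over a median of 82.0 to 108 CPM at ZT8, from 61.1 over 98.9 to 127 CPM at ZT12, from 259 over 493 to 731 CPM at ZT16 and from 263 over 311 to 387 CPM at ZT20. Every WT library at ZT16 and ZT20 was above every one at ZT8 and ZT12. At ZT4 both libraries were above both at ZT8 in Bmal1 WT AL (145 and 323 CPM), Cry WT AL (170 and 265 CPM) and Cry WT RF (148 and 369 CPM), but not in Bmal1 WT RF (102 and 133 CPM). In Bmal1 WT AL only 1 of them was above the ZT0 values of 159 and 172 CPM. Hsp90ab1, at chr17:45567775-45573271, moved over a narrower range. It ran from 621 over 695 to 813 CPM at ZT8, from 917 over 1402 to 1834 CPM at ZT16 and from 879 over 1112 to 1551 CPM at ZT20 in the 8 WT libraries. Its ZT8 values were all below its ZT16 and ZT20 values.

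Hspa8, at chr9:40800984-40810087, was high for a shorter part of the night than the HSP90 genes in the raw values. WT libraries ran from 457 over 515 to 719 CPM at ZT8, from 640 over 796 to 1057 CPM at ZT12, from 1409 over 1988 to 2640 CPM at ZT16 and from 423 over 600 to 978 CPM at ZT20. Thus ZT20 overlapped ZT8 in Hspa8 and lay clear above it in Hsp90aa1. At ZT0, Hspa8 ran from 481 over 723 to 1186 CPM. Hspa1b, the stress-inducible HSP70 at chr17:34956436-34959238, had its highest WT median, 45.4 CPM, at ZT16, where the libraries ran from 11.3 to 84.3 CPM. The medians were 3.97 CPM at ZT4, 3.86 CPM at ZT8, 8.61 CPM at ZT12 and 5.03 CPM at ZT20. At ZT0 the median of Hspa1b was 12.7 CPM, with libraries from 3.85 to 30.5 CPM. Its copy Hspa1a, at chr17:34969190-34972156, ran from 0 over 0.967 to 1.94 CPM at ZT16. It was highest at ZT16 in 6 of the 8 WT series.

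**Figure D1:**
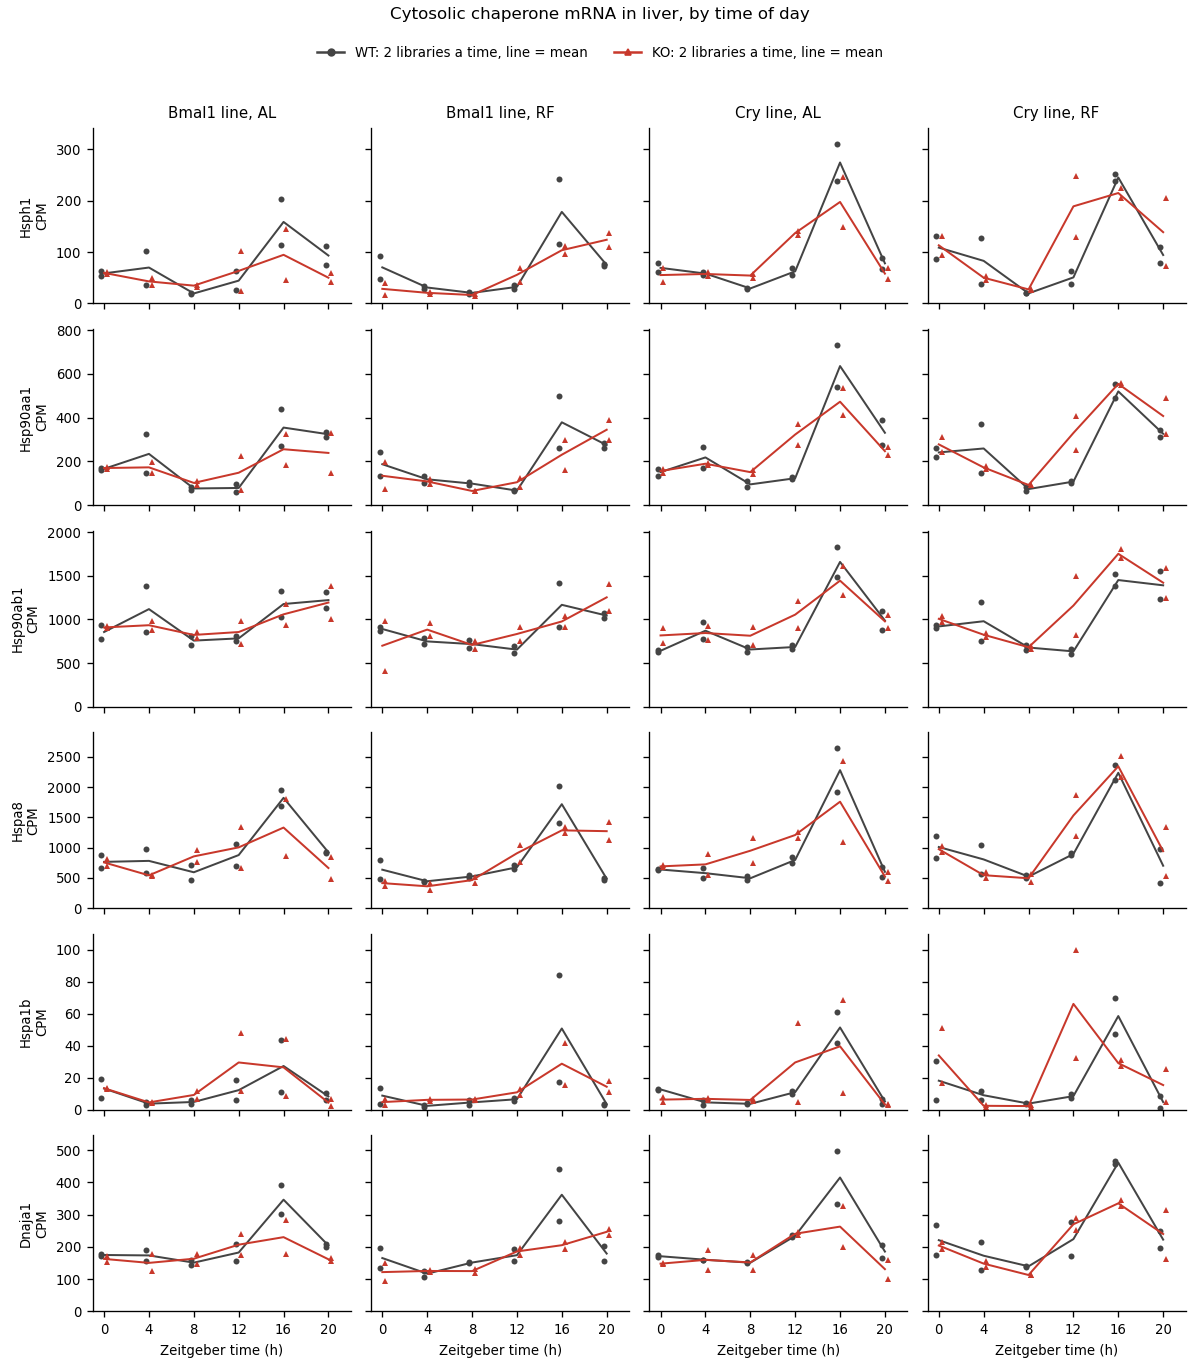
Level of 6 cytosolic chaperone genes (CPM, linear axis from 0) against zeitgeber time (h), with 1 column of panels per line and feeding; points are single libraries (2 a time) and lines their means, WT in dark grey circles and KO in red triangles. The WT lines are highest at ZT16 in every panel but that of Hsp90ab1 in the Bmal1 line under AL.

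The J-domain proteins, which bring clients to HSP70 and start its ATP cycle, shared the ZT16 high. Dnaja1, at chr4:40722150-40737149, ran from 138 over 150 to 160 CPM at ZT8 and from 281 over 417 to 497 CPM at ZT16 in the 8 WT libraries. It was highest at ZT16 in 8 of 8 WT series, as was Hspa8. Dnajb1, at chr8:83608193-83612653, ran from 9.72 over 13.2 to 17.3 CPM at ZT4 and from 24.9 over 37.9 to 56.8 CPM at ZT16. Neither pair of ranges overlapped. Dnajb1 was highest at ZT16 in 6 of 8 WT series, and lowest at ZT4 in 6. Its WT median was 23.1 CPM at ZT0 and 16.0 CPM at ZT20.

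The mitochondrial chaperonin genes Hspd1 (chr1:55077835-55088243) and Hspe1 (chr1:55088132-55091307), whose products form the folding cage of the matrix, had smaller fitted daily ranges than Hsp90ab1 in all 8 groups. Hspd1 ran from 367 over 464 to 518 CPM at ZT0 and from 485 over 555 to 673 CPM at ZT20 in WT livers, and was highest at ZT20 in 5 of 8 series. Hspe1 ran from 77.3 over 93.5 to 126 CPM at ZT8 and from 107 over 125 to 214 CPM at ZT20, and was highest at ZT16 or ZT20 in all 8 series, 4 each. These ranges overlapped. In the Cry RF groups, the mean of Hspe1 went from 88.3 CPM at ZT8 to 164 CPM at ZT20 in WT and from 89.0 CPM at ZT8 to 174 CPM at ZT16 in KO.

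**Figure D2:**
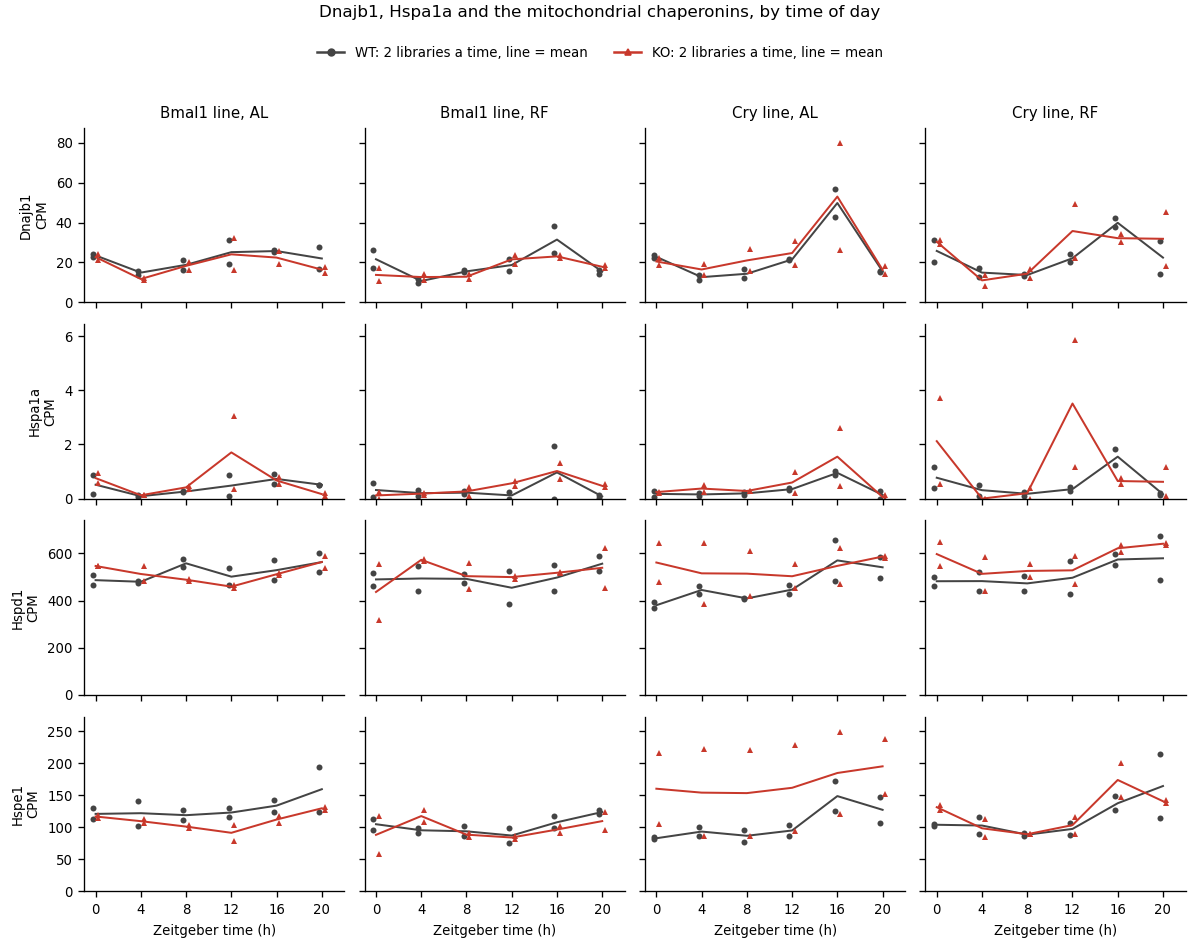
Level of Dnajb1, Hspa1a, Hspd1 and Hspe1 (CPM, linear axis from 0) against zeitgeber time (h), with symbols and panels by line and feeding as in the plot of the 6 cytosolic genes. Hspd1 varies least over the day, Hspe1 is higher at ZT16 and ZT20 than at ZT8 in both Cry RF panels, and in Cry KO AL the 2 libraries of Hspe1 are far apart at every time (104 and 216 CPM at ZT0).

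A 24 h cosine fitted to each group gave a range (fitted peak minus trough, log2) and a peak time. A gene is called rhythmic where edgeR's quasi-likelihood test, after Benjamini-Hochberg (BH) adjustment, gave a p below 0.05 and the range was at least 0.5. In WT groups, 1 of 10 members was rhythmic in Bmal1 WT AL, where 7.98% of 18326 genes tested were, and 5 in Bmal1 WT RF, where 10.7% were. In the Cry line, 6 were rhythmic in Cry WT AL (5.74% of genes) and 5 in Cry WT RF (15.8% of genes). Among KO groups, 0 were rhythmic in Bmal1 KO AL (0.273% of genes) and 0 in Cry KO AL (0.0109% of genes). In the night-fed KO groups, 4 were rhythmic in Bmal1 KO RF (4.94% of genes) and 5 in Cry KO RF (5.97% of genes). The median range over the 10 members was 1.03, 1.12, 1.59 and 1.30 in Bmal1 WT AL, Bmal1 WT RF, Cry WT AL and Cry WT RF, against 0.52, 0.52, 0.46 and 0.58 over all genes tested. It was 0.77 in Bmal1 KO AL and 1.29 in Cry KO AL (all genes 0.34 and 0.38), and 1.57 in Bmal1 KO RF and 1.38 in Cry KO RF (all genes 0.47 and 0.52).

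Some members are high at a single time, which a cosine describes poorly, so any difference between the 6 time means was tested as well (edgeR's quasi-likelihood test, BH adjusted p under 0.05). By this test 4 members changed over time in Bmal1 WT AL (4.8% of genes), 5 in Bmal1 WT RF (6.67%), 7 in Cry WT AL (4.21%) and 7 in Cry WT RF (11.7%). The counts were 0 in Bmal1 KO AL (0.142%) and 0 in Cry KO AL (0%), and 4 in Bmal1 KO RF (2.36%) and 7 in Cry KO RF (3.25%). Leaving out either series of a group left few rhythmic members by the cosine test, from 0 to 2 in the Bmal1 groups and 0 to 4 in the Cry groups. In the KO AL groups, the cosine test gave an unadjusted p under 0.05 for 0 members in Bmal1 KO AL and 7 in Cry KO AL. DESeq2 called 0 in both, and with no filter on low counts edgeR called 4 and 7. The share of all genes is not given for these settings or with a series left out. These counts therefore do not show whether the members stood out from other genes.

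Fitted peaks fell in the night for every rhythmic member of every group, between ZT15.79 and ZT20.66. The HSP70 system was the earlier one. Hspa8 peaked at ZT15.99 ± 1.11 (SE) in Bmal1 WT RF, with a range of 1.46 (adjusted p = 0.0252), and at ZT16.14 in Cry WT AL. Dnaja1 peaked at ZT16.32 in Bmal1 WT RF and at ZT15.79 and ZT17.23 in Cry WT AL and Cry WT RF, with ranges of 1.26, 1.22 and 1.30. By fitted peak, the HSP90 and HSP110 genes were the later ones. Hsp90aa1, rhythmic in all 4 WT groups and the only member of which this holds, peaked at ZT20.66, ZT19.41, ZT18.54 and ZT20.16 in Bmal1 WT AL, Bmal1 WT RF, Cry WT AL and Cry WT RF. Hsph1 peaked at ZT18.68 ± 0.78 in Bmal1 WT RF with a range of 2.78 ± 0.57 (adjusted p = 0.00228), and at ZT17.68 and ZT19.53 in Cry WT AL and Cry WT RF. The difference in peak between genes was not tested. In the measured values, Hsph1, Hspa8 and Dnaja1 were each highest at ZT16 in all 8 WT series, and Hsp90aa1 in 6 of 8.

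Other members were rhythmic in fewer groups. Hsp90ab1 was so in Cry WT AL (peak ZT17.17), Cry WT RF (ZT19.92) and Cry KO RF (ZT17.55), and in no Bmal1 group. Dnajb1 was rhythmic in Cry WT AL and Cry WT RF, with ranges of 1.49 and 1.29. By the cosine, Hspa1b was called in Bmal1 WT RF, with a range of 3.35 ± 1.02 and an adjusted p of 0.0352 by edgeR's quasi-likelihood test, and its ranges elsewhere were 1.95 to 3.11. By the test of the 6 time means it changed over time in Bmal1 WT RF, Cry WT AL, Cry WT RF and Cry KO RF (edgeR adjusted p = 0.00105, 0.00467, 0.00194 and 0.00541). Hspa1a, Hspd1 and Hspe1 were rhythmic in none. Hspd1 had ranges of 0.046 to 0.45, and Hspe1 of 0.27 to 0.88, with its smallest adjusted p, 0.0539, in Cry WT RF.

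**Figure D3:**
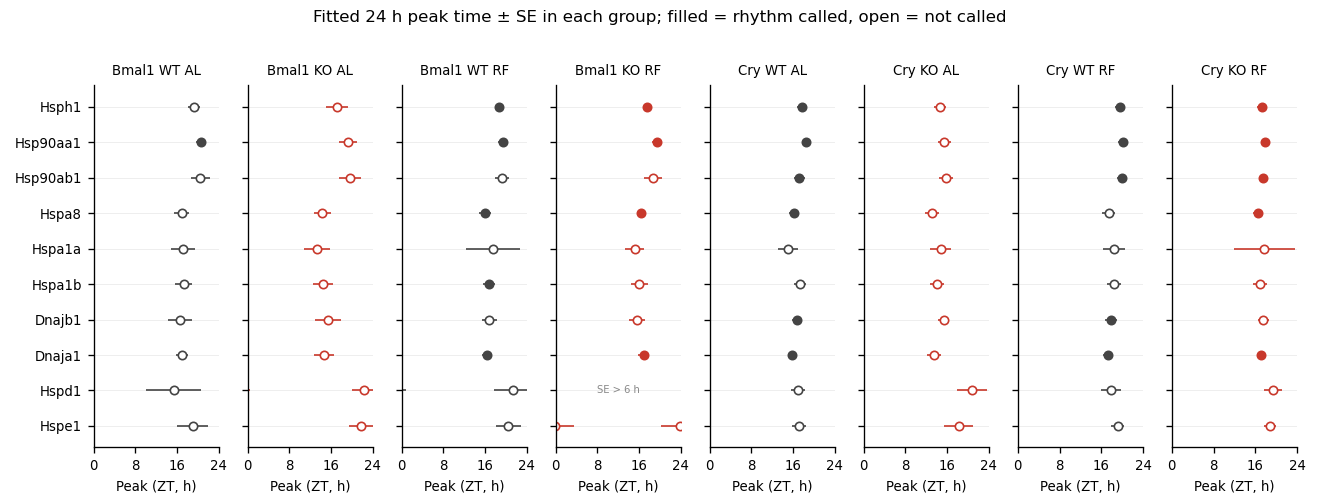
Fitted peak time of each member (ZT, h, from 0 to 24) with its standard error, in 1 panel per group, filled where the rhythm was called and open where it was not, WT in dark grey and KO in red; 1 point with an SE over 6 h is left out. Filled points lie between ZT15.79 and ZT20.66, and no point is filled in Bmal1 KO AL or Cry KO AL.

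In Bmal1 KO AL, the paired libraries were far apart at ZT12 and ZT16 for Hspa8 and Hsph1, while in Cry KO AL both were high for Hsph1 and Hsp90aa1. Hspa8 stood at 665 and 1342 CPM at ZT12 and at 855 and 1806 CPM at ZT16 in Bmal1 KO AL, where Bmal1 WT AL had 1692 and 1951 CPM at ZT16. Cry KO AL had 1154 and 1261 CPM at ZT12 and 1090 and 2425 CPM at ZT16, and its ZT12 values were above both of Cry WT AL (744 and 847 CPM). Of the 4 KO AL series, Hspa8, Hspa1b, Dnaja1 and Dnajb1 were highest at ZT12 in 2 and at ZT16 in 2. Of the 8 WT series, Hspa8 and Dnaja1 were highest at ZT16 in all 8, Hspa1b in 7 and Dnajb1 in 6. Hsph1 was at 25.1 and 102 CPM at ZT12 and at 44.9 and 145 CPM at ZT16 in Bmal1 KO AL. In Cry KO AL it was at 133 and 142 CPM at ZT12 and at 149 and 246 CPM at ZT16, against 41.4 to 69.3 CPM at the other times. Hsp90aa1 was likewise high in both Cry KO AL libraries, at 273 and 371 CPM at ZT12 and at 410 and 534 CPM at ZT16, against 142 to 265 CPM at the other times. The low value of Hsph1 at ZT8 was also less deep in KO AL than in WT AL in the raw values. Hsph1 was then at 32.7 and 36.8 CPM in Bmal1 KO AL against 17.9 and 21.2 CPM in Bmal1 WT AL. It was at 50.6 and 58.2 CPM in Cry KO AL against 29.1 and 29.5 CPM in Cry WT AL. No test of a single time was made.

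In the night-fed KO livers, every library at ZT16 had more Hspa8 than every library at ZT8 (410 to 560 CPM). Hspa8 was at 1237 and 1332 CPM at ZT16 in Bmal1 KO RF and at 2169 and 2515 CPM in Cry KO RF. Its rhythm there had a range of 2.10 with a peak at ZT16.40 ± 0.78 in Bmal1 KO RF (adjusted p = 0.00495) and of 1.97 at ZT16.43 ± 0.83 in Cry KO RF (adjusted p = 0.0056, edgeR's quasi-likelihood test). Hsph1 peaked at ZT17.50 ± 0.72 with a range of 3.04 ± 0.58 in Bmal1 KO RF, and at ZT17.19 ± 0.87 with a range of 2.51 ± 0.58 in Cry KO RF. Hsp90aa1 peaked at ZT19.34 ± 0.87 and ZT17.91 ± 0.86 in these groups, and Dnaja1 at ZT16.89 ± 1.04 and ZT17.09 ± 0.81. These 4 genes were rhythmic in both night-fed KO groups, and Hsp90ab1 in Cry KO RF in addition. Without the 3 shallow libraries, Dnaja1 was no longer called in Bmal1 KO RF nor Hsph1 in Cry KO RF.

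Every library at ZT16 was above every one at ZT8 for 7 of 10 members over the 8 WT libraries a time, against 5.22% of genes tested, and for 8 of 10 over the 4 KO RF libraries, against 5.1% of genes. It was so for 2 of 10, Hsp90aa1 and Hsp90ab1, over the 4 KO AL libraries, against 1.32% of genes. The 2 times were picked after the values were seen. Dnajb1, Dnaja1, Hspa8, Hspa1b, Hsph1, Hsp90aa1 and Hsp90ab1 met this in both WT and KO RF, and Hspa1a in KO RF only. For Hspa1a it rests on few counts. Its lowest KO RF library at ZT16 held 14 (0.555 CPM) and its highest at ZT8 held 13 (0.425 CPM). Hspd1 and Hspe1 met it in none of the 3 sets.

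The 2 night-fed KO groups were not tested against each other, and their values are given beside those of their own WT. At ZT20 in Bmal1 KO RF, Hspa8 was at 1123 and 1419 CPM, where Bmal1 WT RF had 471 and 501 CPM. Hsph1 was at 111 and 138 CPM at ZT20 in Bmal1 KO RF against 72.3 and 77.8 CPM in Bmal1 WT RF, and Dnaja1 at 238 and 255 CPM against 157 and 201 CPM. At ZT16 the order was the other way, with Dnaja1 at 195 and 216 CPM in Bmal1 KO RF and 281 and 443 CPM in Bmal1 WT RF. Of the Bmal1 KO RF libraries at ZT20, 1 is among the shallow ones and the other stood apart in an interferon transcript (Isg15 at 101 CPM, unscaled by TMM). The part of either library in these values was not tested. At ZT12 in Cry KO RF, Hsph1 was at 130 and 248 CPM against 37.7 and 63.9 CPM in Cry WT RF. Hspa8 was then at 1199 and 1861 CPM against 882 and 905 CPM, and Hspa1b at 32.3 and 99.9 CPM against 7.36 and 9.62 CPM. The KO and WT values of these 3 genes did not overlap at ZT12. Those of the J-domain genes did, with Dnaja1 at 252 and 289 CPM against 171 and 278 CPM and Dnajb1 at 22.4 and 49.2 CPM against 20.1 and 24.2 CPM. Of the Cry WT RF libraries at ZT12, 1 stood apart in an acute-phase transcript (Saa1 at 20835 CPM, unscaled by TMM). The Cry KO RF libraries at ZT12 held only 8037894 and 4883930 counts. The part of either in these ZT12 values was not tested.

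Tested as a difference of rhythm (edgeR's quasi-likelihood test of both cosine terms, BH adjusted), 0 of 10 members differed between KO and WT in any line or feeding. The shares of all genes called were 0.611% and 1.06% for Bmal1 KO against WT under AL and RF, and 0.677% and 2.16% for Cry KO against WT. Between feedings 0 of 10 differed too, with 0.0109% of genes called in Bmal1 WT, 0% in Bmal1 KO, 0.0982% in Cry WT and 0% in Cry KO. At an unadjusted p under 0.05 the only member over these 8 comparisons was Dnaja1 in Cry KO, RF against AL (p = 0.0418). With no filter on low counts, 1 to 4 members were called in 7 of the 8 comparisons, so a count of 0 does not show that the rhythms were alike. The share of all genes called with no filter is not given here. DESeq2 called 0 in each.

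In Cry KO RF against Cry WT RF, the fitted peak was 2.33 ± 1.23 h (SE) earlier for Hsph1, 2.25 ± 1.22 h earlier for Hsp90aa1 and 2.36 ± 1.22 h earlier for Hsp90ab1, with adjusted p of 0.582, 0.611 and 0.557 for the difference of rhythm by edgeR's quasi-likelihood test. Dnaja1 (0.14 ± 1.16 h earlier) and Hspa8 (0.99 ± 1.503 h earlier) were closer to WT, but the rhythm of Hspa8 was not called in Cry WT RF. In Bmal1 KO RF against Bmal1 WT RF the shift was 1.18 ± 1.06 h earlier for Hsph1, 0.06 ± 1.26 h earlier for Hsp90aa1, 0.41 ± 1.36 h later for Hspa8 and 0.57 ± 1.35 h later for Dnaja1. In Cry KO AL against Cry WT AL, where the KO rhythm was not called, fitted peaks were 3.07 ± 1.53, 3.10 ± 1.60 and 3.04 ± 1.59 h earlier for Hsph1, Hsp90aa1 and Hspa8.

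Averaged over the 6 times, few members differed between genotypes. In Cry KO AL, Hspe1 was 0.70 ± 0.14 log2 (SE) above Cry WT AL (adjusted p = 0.000248, edgeR's quasi-likelihood test) and Hspd1 was 0.22 ± 0.09 above (adjusted p = 0.0476), so 2 of 10 members were higher and 0 lower, against 15.7% and 11.7% of genes. These calls rest on 1 series: in Cry KO AL series 2, Hspe1 ran from 216 over 225 to 248 CPM, and in series 1 from 85.7 over 99.5 to 152 CPM, while Cry WT AL ran from 77.3 to 173 CPM. Without series 2 the Hspe1 difference was 0.03 and that of Hspd1 0.004, both with an adjusted p of 1. The Hspd1 call was also lost without either series of Cry WT AL (adjusted p = 0.0815 and 0.316). Hspd1 showed the same split, from 554 over 618 to 645 CPM in series 2 and from 385 over 461 to 591 CPM in series 1. The other KO effects held 0 members higher or lower: Bmal1 KO AL against WT AL (10.9% of genes higher, 9.48% lower), Bmal1 KO RF against WT RF (10% higher, 8.35% lower) and Cry KO RF against WT RF (2.67% higher, 2.49% lower). At an unadjusted p under 0.05 these 3 also held 0. DESeq2 called 0 in each, and with no filter on low counts 1 member was called in Bmal1 KO RF (Hspa1b) and 2 in Cry KO RF (Hsph1 and Hsp90aa1). Fitted on the groups compared alone, 1 was called in Bmal1 KO AL (Hspe1). The share of all genes called is not given for these alternatives.

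Night feeding against ad libitum feeding changed 1 member in each of 2 groups. In Bmal1 WT, Hspa8 was 0.44 ± 0.15 log2 lower under RF (adjusted p = 0.0436, edgeR's quasi-likelihood test), with 6.67% of genes higher and 7.2% lower; its 12 libraries ran from 436 over 525 to 2024 CPM under RF and from 466 over 893 to 1951 CPM under AL. DESeq2 gave an adjusted p of 0.0532 for it and RLE scaling 0.0717, and it was not called without any 1 series of either group, without the shallow libraries or without the 6 that stood apart. In Cry KO, Hspe1 was 0.48 ± 0.14 lower under RF than under AL (adjusted p = 0.0184), with 4.35% of genes higher and 9.04% lower; this comparison shares the 12 Cry KO AL libraries, and without series 2 of them the difference was 0.181 in the other direction (adjusted p = 0.492). Without either series of Cry KO RF it missed the threshold (adjusted p = 0.0931 and 0.0825), as it did without the shallow libraries. No member was called in Bmal1 KO (0.6% of genes higher, 0.0382% lower) or Cry WT (0.622% higher, 0.835% lower), and 0 in either was under an unadjusted p of 0.05. DESeq2 called 0 in both, and with no filter on low counts 1 was called in Bmal1 KO (Hsph1), with the share of all genes not given. The median log2 difference over the 10 members was -0.25 in Bmal1 WT and -0.19 in Bmal1 KO, and 0.14 in both Cry WT and Cry KO, with medians over all genes within 0.014 of 0. Whether feeding acted differently in the 2 lines, or in KO and WT, was not tested.

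**Figure D4:**
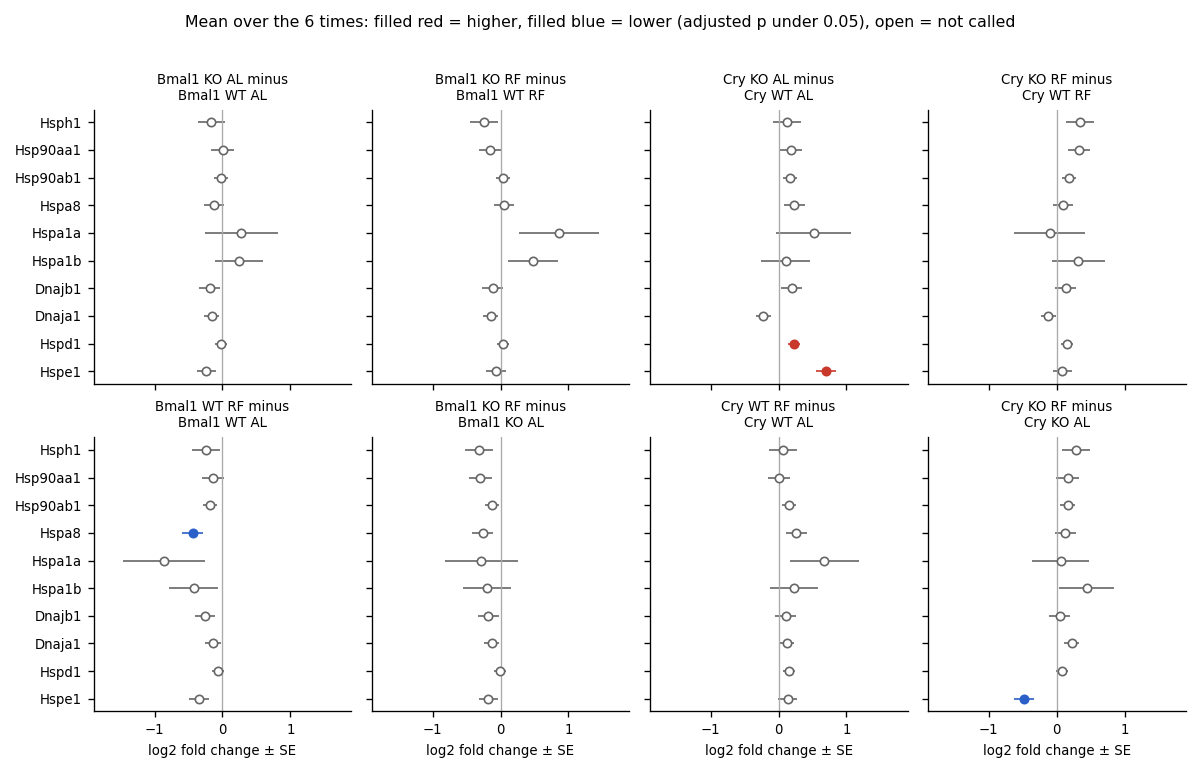
Log2 fold change of each member's level averaged over the 6 times, with its standard error, for the 4 KO against WT comparisons (top row) and the 4 RF against AL comparisons (bottom row), filled red where called higher, blue where called lower and open otherwise. The filled points are Hspe1 (0.70) and Hspd1 (0.22) in Cry KO AL against Cry WT AL, Hspa8 (-0.44) in Bmal1 WT and Hspe1 (-0.48) in Cry KO.

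Of 18 HSP90 and HSP70 partner genes, 3 were rhythmic in Bmal1 WT AL (7.98% of genes) and 7 in Bmal1 WT RF (10.7%). In Cry WT AL 7 were (5.74%), and in Cry WT RF 9 were (15.8%). The counts were 0 in Bmal1 KO AL (0.273%) and 0 in Cry KO AL (0.0109%). They were 3 in Bmal1 KO RF (4.94%) and 8 in Cry KO RF (5.97%). Chordc1, an HSP90 cochaperone, was rhythmic in all 4 WT groups and both KO RF groups, with ranges of 1.12 to 1.43 peaking between ZT17.55 and ZT19.08 in WT, 1.37 at ZT17.75 in Bmal1 KO RF and 1.76 at ZT17.37 in Cry KO RF. Fkbp4, the immunophilin of steroid receptor complexes, was rhythmic in the same 6 groups. Dnajb6, a J-domain protein that keeps proteins from aggregating, had another pattern, with rhythms in the 4 WT groups alone peaking between ZT13.33 and ZT14.51.

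Hsf1, the gene of the main heat shock factor, had ranges of 0.058 to 0.31 over the 8 groups and was rhythmic in 0 of them, as was Hsf2. Hsf4 was rhythmic in Bmal1 WT AL and Bmal1 WT RF, with ranges of 0.88 and 0.92. Of 4 genes, for small heat shock proteins and the collagen chaperone Serpinh1, 0, 1, 1 and 2 were rhythmic in Bmal1 WT AL, Bmal1 WT RF, Cry WT AL and Cry WT RF, 1 in Cry KO RF and 0 in the other 3 groups. The shares of all genes are those given beside the partner genes. Of these 4 genes Hspb1 (HSP27) was rhythmic in Cry WT AL, Cry WT RF and Cry KO RF, with ranges of 2.29, 2.91 and 2.94 peaking at ZT18.58, ZT20.53 and ZT16.75. Hspb1 was also lower in the Bmal1 knockouts, by edgeR's quasi-likelihood test, with log2 differences of -2.68 ± 0.25 under AL and -2.40 ± 0.25 under RF (adjusted p = 8.5e-13 and 6.38e-11), where 0 of the 10 members were called.

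Of 14 endoplasmic reticulum chaperones, 0, 1, 0 and 1 were rhythmic by the cosine in Bmal1 WT AL, Bmal1 WT RF, Cry WT AL and Cry WT RF, 0 in both KO AL groups, 11 in Bmal1 KO RF and 6 in Cry KO RF. The test of time means gave other counts, 2, 6, 6 and 7 in those WT groups, 0 in both KO AL groups, 7 in Bmal1 KO RF and 4 in Cry KO RF. By that test the shares of all genes were 4.8%, 6.67%, 4.21% and 11.7% in the WT groups. They were 0.142% in Bmal1 KO AL, 0% in Cry KO AL, 2.36% in Bmal1 KO RF and 3.25% in Cry KO RF. Hyou1, the HSP110 of that compartment, had ranges of 2.48 in Bmal1 KO RF and 2.05 in Cry KO RF, and by time means it changed in all 4 WT groups too (edgeR adjusted p = 0.0405, 0.00276, 0.00374 and 0.00134). In the same 2 groups the lectin chaperone Calr had ranges of 1.28 and 1.09, and Dnajb11 of 1.47 and 1.18. Of the 8 subunits of the cytosolic chaperonin CCT, 1 was rhythmic in Bmal1 KO RF (Cct4) and 3 in Cry KO RF, Cct3 and Cct5 among them, and 0 in the other 6 groups. The 7 other mitochondrial chaperones and proteases were rhythmic in 0 of the 8 groups, like Hspd1 and Hspe1. For all 3 lists the shares of all genes by the cosine are those given beside the partner genes.

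Cold-inducible and immediate early transcripts were set beside these. Cirbp, a cold-inducible RNA-binding protein, had its fitted peak between ZT5.42 and ZT7.15 in all 8 groups, in the light phase, and was rhythmic in Bmal1 WT RF, Cry WT AL, Cry WT RF and Cry KO RF. Rbm3, of the same family, was rhythmic in Bmal1 WT RF, Cry WT AL and Cry WT RF. Of 8 immediate early genes, 1, 1, 1 and 4 were rhythmic in Bmal1 WT AL, Bmal1 WT RF, Cry WT AL and Cry WT RF, 0 in both KO AL groups and in Bmal1 KO RF, and 1 in Cry KO RF, which was Atf3 with a range of 2.63 at ZT17.71. The shares of all genes were 7.98%, 10.7%, 5.74% and 15.8% in these WT groups and 5.97% in Cry KO RF.

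Over the 48 means of group and time, which share libraries and depth, correlations between members are given as a description. Pearson's r of log2 CPM was 0.92 between Hsph1 and Hsp90aa1, 0.92 between Dnaja1 and Hspa8, and 0.91 between Hsp90aa1 and Hsp90ab1. It was 0.74 between Hspd1 and Hspe1, but 0.30 between Hspd1 and Hspa8 and 0.19 between Hspd1 and Hspa1b. Among 12466 genes of at least 1 CPM, those nearest to the mean profile of the 10 members were Ywhag (r = 0.93), Chordc1 (0.92), Ube2f (0.92), Usp39 (0.90), P4ha1 (0.90), Uspl1 (0.89), Lbhd1 (0.89), Ubqln4 (0.89), Cacybp (0.89) and Mlec (0.89). Gene by gene, Stip1, the adaptor that links HSP70 to HSP90, was nearest to Hsp90aa1 (0.97) and Hsp90ab1 (0.93), and Chordc1 to Hsph1 (0.95) and Dnaja1 (0.91). P4ha1 was nearest to Dnajb1 (0.89), Snx3 to Hspe1 (0.91) and C1qbp to Hspd1 (0.77). The nearest to Hspa8 (Gm8355, 0.95) and to Hspa1b and Hspa1a (Gm15459, 0.87 and 0.77) are processed pseudogenes of Hspa8, with which Hspa8 shares 29.5% and 58.5% of its 100-base stretches, so their reads may be those of Hspa8.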

How the data were processed

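Liver RNA (250 ng of total RNA, stranded mRNA kit, 11 PCR cycles, 100-cycle paired ends, per the labels' protocols) was sequenced in 96 libraries. The deposited values are raw, unnormalised counts, 1 row for each Ensembl gene. The submitters' processing notes name STAR 2.4.0i and mm10; the counter, its strand setting and the gene models are not given in the sources read here. A symbol was matched to 55154 of 55421 genes; genes with none (267) took 0.0449% of counts. No 2 libraries of a group and time were identical (chi-square per degree of freedom 10.14 to 744.4).

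Counts were fitted with edgeR 4.0.16 in R 4.3.3 (limma 3.58.1), with TMM scaling and filterByExpr by group and time (at least 10 counts, 15 in total). This left 18326 genes, out of 35670 that were read at all, with 99.97% of counts. Mean levels (8 comparisons) came from 1 mean per group and time, with equal weight on the 6 times; rhythms (8 groups) and their differences (8 comparisons) came from 24 h cosines, with delta-method errors for the peaks. Each p was adjusted over all genes tested in its comparison. The fits were tested on simulated data first. Total counts per library were 1478963 to 35568856, and pairs of libraries differed by more than counting error.

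The 10 members and the 8 lists of 64 other genes were chosen with earlier results of these data known. Named besides the members were the 3 genes of each list with the smallest p over all cosine terms, the 10 genes nearest to the mean member profile and the 1 nearest to each member, and Arntl, Cry1 and Cry2. WT and KO of the Bmal1 line share 2 replicate numbers under each feeding, and those of the Cry line share fewer than 2; same-numbered Bmal1 libraries deviated together with r from -0.075 to 0.27 over 12 pairs of libraries, so the numbers were not taken to pair them. Alternatives were RLE scaling, no filter, DESeq2 1.42.0, only the groups compared, a replicate block, each series left out, no minimum range and tests of time means; 2 that left out libraries were chosen after seeing the data.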

Additional observations from a re-analysis of the deposited data

How the results depend on the processing

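Counts of members called depended most on the filter on low counts. With no filter, mean-level counts went from 0 to 1 in Bmal1 KO, RF against AL, and in Bmal1 KO RF against WT RF, from 1 to 3 in Bmal1 WT, RF against AL, from 2 to 1 in Cry KO AL against WT AL, from 1 to 2 in Cry KO, RF against AL, and from 0 to 2 in Cry KO RF against WT RF. Rhythm counts with no filter were 4 in Bmal1 KO AL, 7 in Bmal1 KO RF, 5 in Bmal1 WT AL, 7 in Cry KO AL, 8 in Cry KO RF and 9 in Cry WT RF. Counts for differences of rhythm, all 0 with the filter, were 2 for Bmal1 KO AL against WT AL and for Bmal1 KO by feeding, 1 for Bmal1 KO RF against WT RF, 4 for Cry KO AL against WT AL and for Cry KO by feeding, 3 for Cry KO RF against WT RF and 1 for Cry WT by feeding. The cause was not tested for any change given here. Shares of all genes called are not given for these alternatives, so the counts describe the members alone.

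Only the groups compared gave 1 (mean, Bmal1 KO AL against WT AL), 2 (mean, Bmal1 WT by feeding), 1 (mean, Cry KO AL against WT AL), 0 (mean, Cry KO by feeding), 0 (rhythm, Bmal1 WT AL) and 3 (rhythm, Cry WT RF). For Bmal1 WT by feeding, the mean-level count was 0 with DESeq2, with RLE scaling, without the 3 shallow libraries and without the 6 that stood apart. Without the shallow libraries it was 1 for Cry KO AL against WT AL and 0 for Cry KO by feeding. In Bmal1 WT AL the rhythm count was 3 with DESeq2 and 4 by time means.

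Leaving out 1 series gave mean-level counts of 0 to 0 in Bmal1 WT by feeding, 1 to 4 in Cry KO AL against WT AL and 0 to 1 in Cry KO by feeding, where Hspe1 ran from -0.96 without Cry KO AL replicate 1 to 0.181 without replicate 2. Rhythm counts were then 0 to 1 in Bmal1 KO RF, 0 to 0 in Bmal1 WT AL, 0 to 2 in Bmal1 WT RF, 0 to 0 in Cry KO RF, 0 to 0 in Cry WT AL and 0 to 4 in Cry WT RF. The replicate block, fitted for the 8 results of the Bmal1 KO against WT comparisons and their groups, changed no count of calls: 0 mean-level calls in both comparisons, 0, 4, 1 and 5 rhythmic members in Bmal1 KO AL, Bmal1 KO RF, Bmal1 WT AL and Bmal1 WT RF, and 0 differences of rhythm in both. A block by number was not possible in the Cry line, whose groups share fewer than 2 numbers. Peaks of called members shifted by -1.48 to 1.61 h over all alternatives.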
